A study of Mus musculus with 9 samples.

Results

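Cells copy their genes with 3 nuclear RNA polymerases, and the deposited table of 24421 gene symbols lists 28 whose symbols begin with Polr1, Polr2 or Polr3 followed by a letter, the names of the subunits of RNA polymerases I, II and III (Pol I, Pol II and Pol III). All 28 reached at least 10 counts in 3 or more libraries, and all 28 entered the test across genes. By what each subunit is known to belong to, 3 are particular to Pol I (Polr1a, Polr1b, Polr1e), 7 to Pol II (Polr2a, Polr2b, Polr2c, Polr2d, Polr2g, Polr2i, Polr2j) and 10 to Pol III (among them Polr3a to Polr3g, Polr3gl and Polr3k). Another 2 are shared by Pol I and Pol III (Polr1c, Polr1d) and 5 by all 3 enzymes (Polr2e, Polr2f, Polr2h, Polr2k, Polr2l). The last, Polr2m, encodes Gdown1, a protein that associates with Pol II.

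The libraries are bulk RNA sequencing of mouse cells on the C57BL/6 background. Lineage-depleted bone marrow was expanded for 5 days in interleukin 3, interleukin 6 and stem cell factor to give cells described as myeloid blast-like. The 3 groups of 3 libraries are wild-type (WT) cells given vehicle, Tet2-/-Flt3ITD cells given vehicle, and Tet2-/-Flt3ITD cells given SHP099 for 24 h. Tet2-/-Flt3ITD cells (mutant cells below) are labelled as lacking Tet2, a DNA demethylase gene, and as carrying the ITD allele of Flt3, a stretch repeated in tandem within the gene of a cytokine receptor kinase. Both lesions are present in every mutant library, so the genotype comparison does not separate them. SHP099 is an allosteric inhibitor of the tyrosine phosphatase SHP2, which passes growth factor receptor signals to RAS and ERK. The mutant cultures came from individual mice, WT cells received no SHP099, and a culture from lineage-depleted marrow is a mixture of cell types.

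Pol I makes the large ribosomal RNA precursor, Pol II makes messenger RNA, and Pol III makes transfer RNA and other short RNAs. The largest and second-largest subunits of each enzyme (Polr1a and Polr1b, Polr2a and Polr2b, Polr3a and Polr3b) form its catalytic centre, and smaller subunits serve in assembly, in the stalk, in initiation and in cleavage of the transcript. In proliferating cells the output of Pol I and Pol III is tied to growth, and growth factor signalling through ERK is known to act on initiation factors of both.

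Total counts ran from 27242168 to 45810089 per library. Tet2 was at 33.2 ± 1.48 CPM in WT (counts per scaled library, the unit of level used here, with SD and n = 3), 15.5 ± 1.3 in mutant vehicle and 12.4 ± 1.28 in SHP099-treated libraries, lower in every mutant library than in any WT one. The summed level of 9 myeloid progenitor genes, Kit and Mpo among them, was 13596 to 22051 CPM in every library, while 4 lymphoid genes summed to at most 9.8 CPM. Erythroid genes (6) summed to 135 to 197 CPM in WT, 55.9 to 83.1 in mutant vehicle and 76.4 to 97.6 in SHP099 libraries. Of these the haemoglobin gene Hba-a1 was at 0. The summed level of 8 mature neutrophil genes was 24005 to 30457 CPM in WT, 17581 to 18628 in mutant vehicle and 25435 to 30382 in SHP099 libraries. Mast cell and basophil genes (6) summed to 1805 to 1990, 931 to 1338 and 1400 to 1826 CPM in that order of groups, and megakaryocyte genes (6) to 2438 to 3067, 1089 to 1470 and 1381 to 1816 CPM. The summed levels of the neutrophil and of the mast cell and basophil genes therefore moved with both comparisons. Those of the megakaryocyte and of the erythroid genes were lower in mutant vehicle than in WT libraries. They overlapped between vehicle and SHP099 libraries of mutant cells. Fewer cells of a type cannot be told apart from less RNA per cell, so a change in the makeup of the cultures is not shown. The part of makeup in the results that follow was not tested. SHP099 replicate 3 stood apart from the other libraries of its group: chi-square per degree of freedom over the genes tested was 114 and 110 against replicates 1 and 2, and 18.6 between those. The row Rn45s, treated under other observations, took a far larger share of the counts in replicate 3. How much of the chi-square came from that single row was not separated.

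Levels were compared between genes per kilobase of transcript. In WT cells the subunits particular to Pol II lay between 20.7 (Polr2i) and 81.7 CPM per kb (Polr2j), those of Pol I between 9.19 (Polr1a) and 16.6 (Polr1b), and those of Pol III between 8.03 (Polr3f) and 26.1 (Polr3c). The largest subunits stood at 41.5 CPM per kb for Polr2a, 9.19 for Polr1a and 8.66 for Polr3a, and the second-largest at 42.1 for Polr2b, 16.6 for Polr1b and 12.2 for Polr3b. Subunits shared by all 3 enzymes covered a wide range, from 4.64 CPM per kb for Polr2l to 67.3 for Polr2e, and Polr2m was at 73.3. The length is that of 1 annotated transcript per gene, so a gene that mostly uses another isoform is misplaced on this scale.

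**Figure D1:**
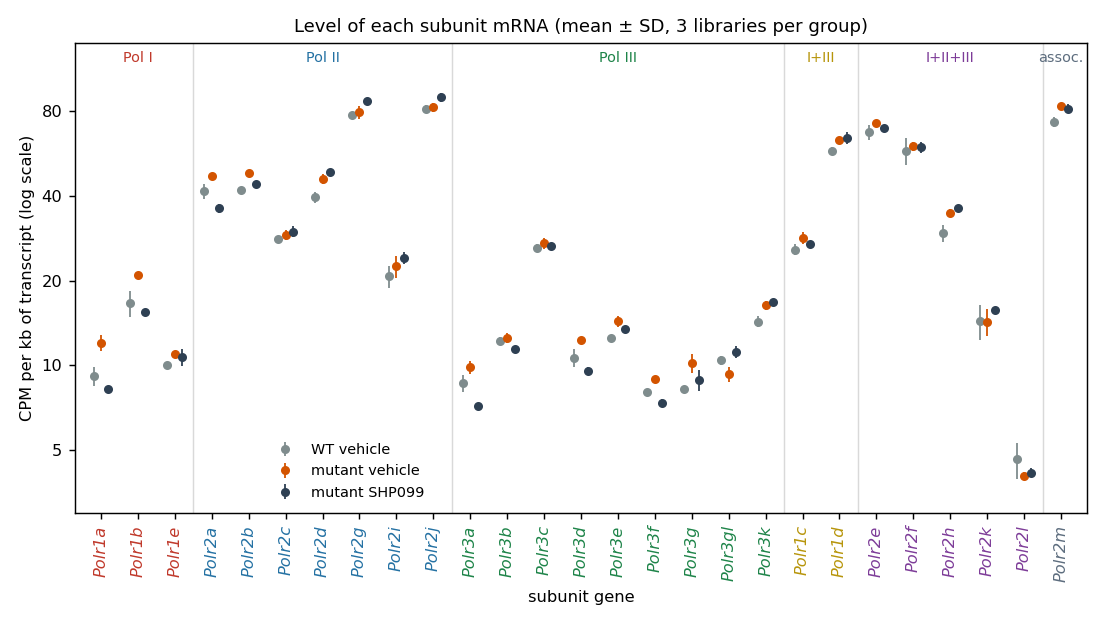
Level of 27 subunit mRNAs in CPM per kilobase of transcript (log scale), mean ± SD of 3 libraries in WT vehicle (grey), mutant vehicle (orange) and mutant SHP099 (dark blue) cells, with the genes grouped by the polymerase they belong to. Most Pol II subunits lie above the Pol I and Pol III subunits in all 3 groups, and differences between groups are small beside those between genes.

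Setting mutant against WT vehicle libraries shows how the subunit mRNAs differed before any drug. Of the 28, 13 were higher in mutant cells and 0 lower: Polr1a and Polr1b of Pol I; Polr2a, Polr2b and Polr2d of Pol II; Polr3a, Polr3d, Polr3e, Polr3f, Polr3g and Polr3k of Pol III; the shared Polr2h; and Polr2m (edgeR quasi-likelihood test, Benjamini-Hochberg adjusted p under 0.05 over 13270 genes). Over all genes tested, 16.9% were higher and 14.7% lower. The libraries of the groups did not overlap for 15 subunits that stood higher and 1, Polr3gl, that stood lower, against 24.6% and 20.5% of all genes. The changes were small, from a log2 fold change of 0.15 to 0.39 among those called. Calls at this size depended on the libraries used: 7 were made without WT vehicle replicate 2, and 8 without mutant vehicle replicate 2 or without mutant vehicle replicate 3. Only Polr1a and Polr1b were called in all 17 alternative analyses.

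Treatment with SHP099 asked what inhibition of SHP2 does to mutant cells, and here 7 subunit mRNAs were lower and 2 higher than with vehicle. The 7 were Polr1a, Polr1b, Polr2a, Polr2b, Polr3a, Polr3d and Polr3f, so that the largest subunit of each enzyme was among them, and the 2 were Polr2g and Polr3gl. Over all genes tested, 13% were lower and 8.81% higher. Libraries did not overlap for 9 lower and 4 higher subunits, against 22.4% and 18.3% of all genes. None of the 7 shared subunits changed by this test. Vehicle and SHP099 libraries of the same replicate number deviated from their group means together. With the number as a block, 9 were lower, adding Polr3b and Polr3g, and 3 higher, adding Polr2j, where 21.3% of genes were lower and 21.5% higher. With the block and with a trend on transcript length and GC content removed, 11 were lower and 1 higher, against 18.5% and 21.6% of genes. The lower calls of Polr1a, Polr1b, Polr2a, Polr3a, Polr3d and Polr3f were kept in all 17 alternatives, including the one without SHP099 replicate 3.

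**Figure D2:**
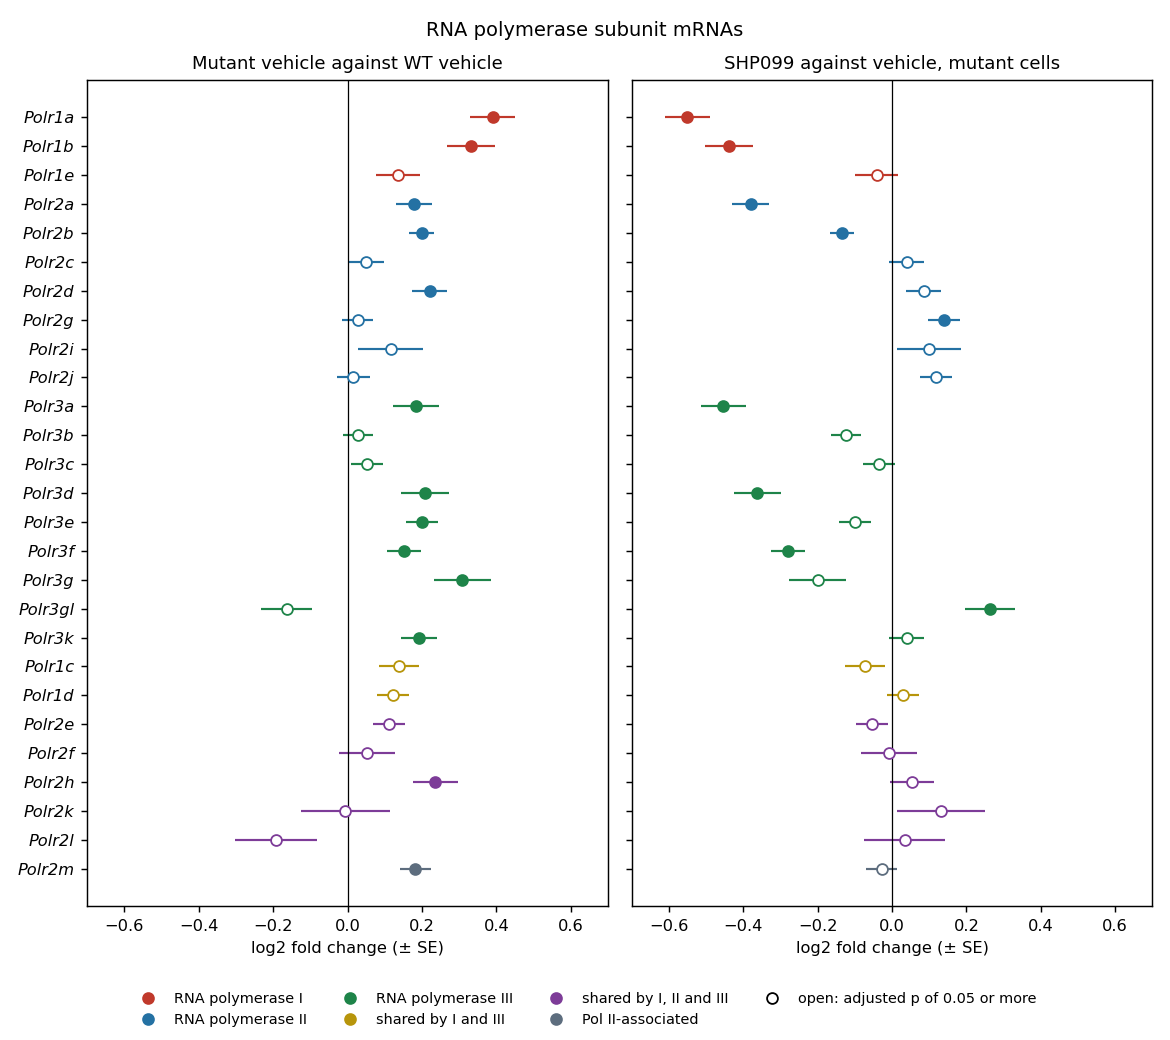
Log2 fold change ± SE (edgeR, 3 libraries per group) of 27 subunit mRNAs for mutant against WT vehicle cells (left) and for SHP099 against vehicle in mutant cells (right), filled where the adjusted p is under 0.05. On the right Polr1a, Polr1b, Polr2a, Polr3a, Polr3d and Polr3f lie farthest to the left, and on the left 24 of the 27 are above 0; both panels use the same mutant vehicle libraries.

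As a group by the median log2 fold change, the 3 Pol I subunits were at 0.33 for mutant against WT and -0.44 for SHP099 against vehicle. Both are the values of Polr1b. These medians became 0.32 and -0.34 with the trend of fold change on transcript length and GC content removed. They leave out 3 Pol I subunits under other symbols (Cd3eap, Twistnb and Znrd1), whose own medians were 0.22 and -0.17. The 10 Pol III subunits were at 0.17 and -0.11, and at 0.10 and -0.07 with the trend of fold change on transcript length and GC content removed. The 7 Pol II subunits were at 0.12 and 0.08. Their genotype median ran from 0.03 to 0.17 with 1 library left out, and their SHP099 median from 0.04 to 0.11, turning to -0.04 with that trend removed. Over all genes tested the medians were 0.02 and 0.00. Both comparisons use the same mutant vehicle libraries, so that a library effect in them enters both with opposite sign.

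Polr1a (chromosome 6, 71909053 to 71984935, GRCm38), the largest subunit of Pol I, was at 78.6, 83.9 and 91.6 CPM in the WT libraries, at 118, 105 and 110.3 CPM in the mutant vehicle libraries and at 75.8, 75.4 and 76.2 CPM in the SHP099 libraries. Every mutant vehicle library lay above all WT and all SHP099 libraries, and the SHP099 libraries lay below all WT libraries as well. Against WT the log2 fold change was 0.39 ± 0.06 (SE; edgeR adjusted p = 0.0016). SHP099 changed it by -0.55 ± 0.06, 1.46-fold lower (edgeR adjusted p = 0.00053), the largest decrease among the 28 on this scale. With the length and GC trend removed the SHP099 value was -0.34 (edgeR adjusted p = 0.0082), smaller than those of Polr1b, Polr3d and Polr3a.

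Polr1b (chromosome 2, 129100995 to 129126594), the second-largest subunit of Pol I, was at 59.3, 66.4 and 73.4 CPM in WT, 82.0, 84.6 and 84.2 in mutant vehicle and 61.3, 62.4 and 61.5 CPM in SHP099 libraries. The mutant vehicle libraries again stood above all others, and the SHP099 libraries fell within the WT range. It changed by 0.33 ± 0.06 against WT (edgeR adjusted p = 0.0044) and by -0.44 ± 0.06 with SHP099 (edgeR adjusted p = 0.0017), the latter 1.35-fold lower. Polr1e, a subunit of the Pol I heterodimer that helps initiation, ran from 29.5 to 34.1 CPM over all 9 libraries and passed neither test (-0.04 ± 0.06 with SHP099, edgeR adjusted p = 0.66).

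Other subunits of Pol I stand in the table under other symbols. Cd3eap, the partner of Polr1e, was at 44.7 ± 1.27 CPM in WT, 52.2 ± 1.77 in mutant vehicle and 45.3 ± 1.93 in SHP099 cells (SD, n = 3). It rose by 0.22 ± 0.05 against WT (edgeR adjusted p = 0.007) and changed by -0.20 ± 0.05 with SHP099 (edgeR adjusted p = 0.014), a call lost without SHP099 replicate 1 or 3. Twistnb, of the Pol I stalk, was at 26.4 ± 0.404, 33 ± 2.01 and 29.2 ± 2.18 CPM; it rose by 0.32 ± 0.07 against WT (edgeR adjusted p = 0.0065) and its SHP099 value of -0.17 ± 0.07 passed with the replicate block (edgeR adjusted p = 0.016) and not without it (0.094). Znrd1, the small subunit that trims the nascent transcript, went the other way with SHP099, from 26.3 ± 1.18 to 30.5 ± 0.143 CPM (0.21 ± 0.06, edgeR adjusted p = 0.025), which did not pass when mutant vehicle replicate 1 or 3 or SHP099 replicate 2 or 3 was dropped, or with the length trend removed (adjusted p = 0.53).

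For Pol II, Polr2a (chromosome 11, 69733997 to 69758637), which carries the C-terminal repeat domain that kinases phosphorylate during transcription, was at 287, 260.4 and 293 CPM in WT, 309, 319.5 and 322 in mutant vehicle and 244, 252 and 235 CPM in SHP099 libraries. The 3 groups did not overlap, with SHP099 lowest and mutant vehicle highest. The log2 fold change was 0.18 ± 0.05 against WT (edgeR adjusted p = 0.022), a call that depended on WT replicate 2 and on mutant vehicle replicates 2 and 3, each of which ended it when left out, as did a fit of the 2 groups alone. With SHP099 it was -0.38 ± 0.05, 1.3-fold lower (edgeR adjusted p = 0.001), and -0.24 with the length and GC trend removed.

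Polr2b (chromosome 5, 77310147 to 77349324), the second-largest subunit of Pol II, was at 178, 171 and 175 CPM in WT, 199, 201 and 202 in mutant vehicle and 181, 185 and 181 CPM in SHP099 libraries. Its groups also stood apart, though by far less in the SHP099 comparison than those of Polr2a. It rose by 0.20 ± 0.03 against WT (edgeR adjusted p = 0.0022) and changed by -0.13 ± 0.03 with SHP099 (edgeR adjusted p = 0.017). Leaving out mutant vehicle replicate 2, mutant vehicle replicate 3, SHP099 replicate 1 or SHP099 replicate 3 ended the SHP099 call, with adjusted p up to 0.079.

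None of the smaller subunits of Pol II was lower under SHP099 in the test of all libraries. Polr2g, which with Polr2d forms the stalk, was at 69.4, 67.2 and 70.8 CPM in WT, 66.4, 73.2 and 71.7 in mutant vehicle and 76.4, 77.9 and 78.6 CPM in SHP099 libraries. All SHP099 libraries were above all others (0.14 ± 0.04 against vehicle, edgeR adjusted p = 0.042), but the call held in 8 of the 17 alternatives. Dropping WT replicate 1, mutant vehicle replicate 1 or 3, or SHP099 replicate 2 or 3 ended it, and the value was -0.0021 with the length trend removed. Polr2d was at 38.1, 41.5 and 40.7 CPM in WT, 46.4, 45.1 and 48.7 in mutant vehicle and 49.6, 48.9 and 50.2 CPM in SHP099 libraries. It stood above WT in every mutant library (0.22 ± 0.05 for the vehicle libraries, edgeR adjusted p = 0.0074), and the SHP099 value of 0.08 ± 0.05 did not pass (edgeR adjusted p = 0.23).

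Polr2j, an assembly subunit that pairs with Polr2c, had a SHP099 value of 0.12 ± 0.04 (edgeR adjusted p = 0.08, and 0.041 with the replicate block), with SHP099 libraries at 56.3 to 60.2 CPM and vehicle libraries at 52.0 to 55.7. The value turned to -0.04 with the length and GC trend removed (edgeR adjusted p = 0.48, and 0.41 with the block as well). Polr2c and Polr2i passed neither test, at 43.1 to 49.4 and 15.3 to 20.9 CPM over the 9 libraries. Polr2m was at 158, 157 and 169 CPM in WT, 180.2, 186 and 182 in mutant vehicle and 173, 187 and 178 CPM in SHP099 libraries. It was higher in mutant than in WT cells (0.18 ± 0.04, edgeR adjusted p = 0.01), a call lost without WT replicate 2, and overlapped between SHP099 and vehicle.

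**Figure D3:**
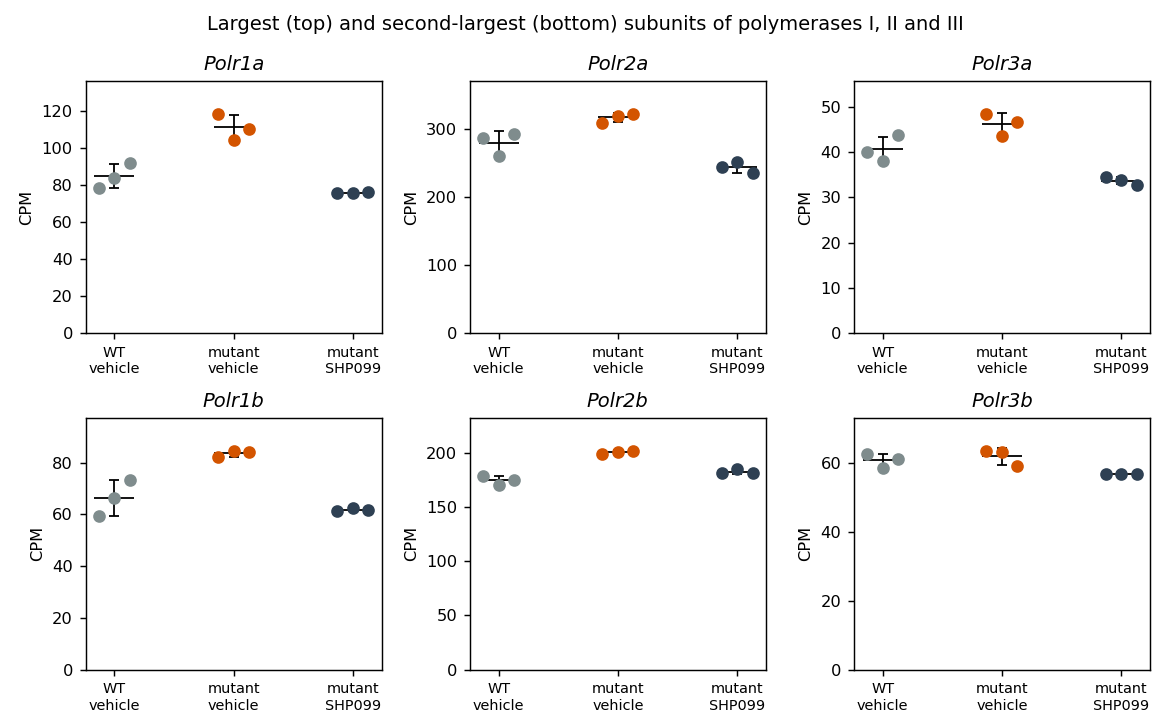
CPM in each library (points) with mean ± SD (bars, n = 3) for the largest (top) and second-largest (bottom) subunits of Pol I, Pol II and Pol III in WT vehicle, mutant vehicle and mutant SHP099 cells; each axis starts at 0. In all 6 panels the 3 SHP099 libraries lie below the 3 mutant vehicle libraries, by 1.46-fold for Polr1a and 1.09-fold for Polr3b.

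For Pol III, Polr3a (chromosome 14, 24448696 to 24487058), the largest subunit, was at 40.01, 38.0 and 43.6 CPM in WT, 48.4, 43.5 and 46.6 in mutant vehicle and 34.5, 33.8 and 32.8 CPM in SHP099 libraries. The SHP099 libraries were below every other library, while WT and mutant vehicle libraries overlapped. SHP099 changed it by -0.45 ± 0.06, 1.37-fold lower (edgeR adjusted p = 0.0012). The rise of 0.18 ± 0.06 against WT (edgeR adjusted p = 0.045) held in 3 of 17 alternatives; of the 9 libraries, only WT replicate 3 and mutant vehicle replicate 2 could be dropped without ending it.

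Polr3b (chromosome 10, 84622292 to 84727178), its catalytic partner, was at 62.7, 58.8 and 61.2 CPM in WT, 63.7, 63.4 and 59.2 in mutant vehicle and 56.9, 57.0 and 57.0 CPM in SHP099 libraries. WT and mutant vehicle libraries overlapped, and the SHP099 libraries lay just below both. The SHP099 value was -0.12 ± 0.04 (edgeR adjusted p = 0.053, and 0.024 with the replicate block). It was -0.06 with the length and GC trend removed (edgeR adjusted p = 0.34, and 0.26 with the block as well).

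Polr3d and Polr3e form a pair that helps Pol III to start and stop. Polr3d was at 19.8, 22.2 and 23.0 CPM in WT, 24.7, 24.8 and 25.6 in mutant vehicle and 19.8, 19.8 and 18.9 CPM in SHP099 libraries. Mutant vehicle libraries were above all others (-0.36 ± 0.06 with SHP099, edgeR adjusted p = 0.0042), and the rise of 0.21 ± 0.06 against WT (edgeR adjusted p = 0.033) held in 5 of 17 alternatives, being lost without any 1 library other than WT replicate 3. Polr3e was at 52.8, 51.0 and 53.6 CPM in WT, 57.8, 60.02 and 63.1 in mutant vehicle and 54.7, 58.1 and 56.0 CPM in SHP099 libraries. It was higher in mutant than WT vehicle cells (0.20 ± 0.04, edgeR adjusted p = 0.0077), and its SHP099 and vehicle libraries overlapped (-0.10 ± 0.04, edgeR adjusted p = 0.13).

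Polr3c, Polr3f and either Polr3g or Polr3gl make up the trimer that opens the promoter. Polr3f was at 35.7, 34.6 and 35.9 CPM in WT, 39.4, 38.4 and 40.1 in mutant vehicle and 31.1, 32.8 and 33.2 CPM in SHP099 libraries. The 3 groups did not overlap, with a fall of 0.28 ± 0.05 on the log2 scale under SHP099 (edgeR adjusted p = 0.0029). Its rise of 0.15 ± 0.05 against WT (edgeR adjusted p = 0.031) held in 2 of 17 alternatives and was lost without any 1 library other than SHP099 replicate 1. Polr3c passed neither test, at 60.6 to 67.8 CPM over the 9 libraries.

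Polr3k, the subunit for transcript cleavage and termination, was at 39.98, 43.1 and 43.4 CPM in WT, 50.3, 47.3 and 46.9 in mutant vehicle and 49.0, 50.5 and 48.9 CPM in SHP099 libraries. Both mutant groups stood above WT (0.19 ± 0.05 for vehicle, edgeR adjusted p = 0.013), and they overlapped each other. The vehicle value was 0.09 with the length and GC trend removed (edgeR adjusted p = 0.17), and the call was also lost with the 2 groups alone. Crcp, a Pol III subunit listed under another symbol, was at 37.5 ± 1 CPM in WT, 41.8 ± 0.525 in mutant vehicle and 42.1 ± 0.399 in SHP099 cells; the rise of 0.16 ± 0.04 against WT (edgeR adjusted p = 0.016) ended when replicate 2 or 3 of either vehicle group was dropped.

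Polr3g and Polr3gl are paralogs that take the same place in Pol III, so a cell can hold 2 forms of the enzyme; Polr3g is known from undifferentiated and transformed cells and Polr3gl from cells in general. The 250 bases before the annotated start of each gene are shown because the mean of the mutant vehicle group was the highest of the 3 groups for Polr3g and the lowest for Polr3gl (RefSeq, GRCm38.p6, minus strand, 5′ to 3′). They are Polr3g at chr13:81711014-81711263 and Polr3gl at chr3:96594182-96594431. Capitals mark matches to the 4 motifs searched on both strands. These were the E-box CACGTG bound by MYC and related factors, the extended ETS core CCGGAAG, the GC box GGGCGG, and the NRF1 motif. Shorter forms of the ETS core were not searched and are not marked in either window.
Polr3g: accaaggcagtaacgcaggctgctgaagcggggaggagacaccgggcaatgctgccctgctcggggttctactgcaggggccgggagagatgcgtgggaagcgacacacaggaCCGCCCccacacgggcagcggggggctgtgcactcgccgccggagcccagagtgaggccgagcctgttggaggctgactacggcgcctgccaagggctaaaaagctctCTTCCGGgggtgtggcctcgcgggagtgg
Polr3gl: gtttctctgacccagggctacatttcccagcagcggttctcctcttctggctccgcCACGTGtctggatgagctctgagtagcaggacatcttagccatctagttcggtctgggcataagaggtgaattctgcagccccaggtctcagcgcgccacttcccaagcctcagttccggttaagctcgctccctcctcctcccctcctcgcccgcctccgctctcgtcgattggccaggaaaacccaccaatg
The Polr3g window held a GC box that began 137 bases before the start and an extended ETS core 29 bases before it. The Polr3gl window held an E-box 194 bases before it. Of 32851 promoter windows of this length, 6.02% held the E-box, 6.91% the extended ETS core and 32.7% the GC box. Of 24 windows of 22 subunit genes, 2, 5 and 15 did. The motifs did not overlap, and a match is a run of letters, not a measured binding site.

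Polr3g was at 24.3, 25.5 and 25.7 CPM in WT, 33.0, 32.0 and 28.3 in mutant vehicle and 25.3, 29.6 and 26.4 CPM in SHP099 libraries. Polr3gl was at 14.3, 14.8 and 15.4 CPM in WT, 14.1, 13.3 and 12.4 in mutant vehicle and 16.8, 15.4 and 15.7 CPM in SHP099 libraries. Mutant vehicle libraries were thus the highest for Polr3g, with 1 SHP099 library reaching into their range, and the lowest for Polr3gl. Polr3g rose by 0.31 ± 0.08 against WT (edgeR adjusted p = 0.014), a call lost without mutant vehicle replicate 2, and its SHP099 value was -0.20 ± 0.08 (edgeR adjusted p = 0.092, and 0.0062 with the replicate block). Polr3gl rose by 0.26 ± 0.07 with SHP099 (edgeR adjusted p = 0.022), lost without mutant vehicle replicate 3 or SHP099 replicate 1 or 3 and with the length trend removed (0.12). Against WT it was at -0.16 ± 0.07 (edgeR adjusted p = 0.097).

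The ratio of the 2 paralogs within a library does not depend on its scaling. Polr3g counts were 1.69, 1.72 and 1.67 times those of Polr3gl in WT libraries, 2.34, 2.4 and 2.28 times in mutant vehicle libraries and 1.51, 1.93 and 1.68 times in SHP099 libraries. The mutant vehicle libraries stood above both other groups, and WT and SHP099 libraries were intermingled. The log2 ratio was 0.76 ± 0.02 in WT, 1.23 ± 0.04 in mutant vehicle and 0.76 ± 0.18 in SHP099 cells (SD, n = 3). An exact two-sided permutation test of 3 against 3 libraries gives p = 0.1 for each comparison, the smallest value it can give, and 0.14 after adjustment over the 14 ratio tests made. It exchanged libraries freely and did not keep the pairing of vehicle and SHP099 libraries by replicate number.

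**Figure D4:**
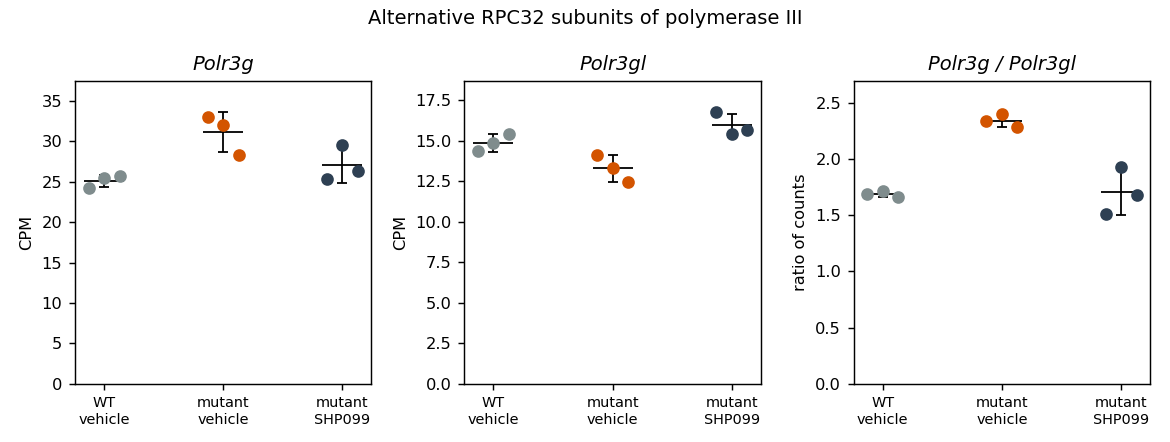
CPM of Polr3g (left) and Polr3gl (middle) and the ratio of their counts (right) in each library (points), with mean ± SD (n = 3). The mutant vehicle libraries have ratios of 2.28 to 2.4, above all WT libraries (1.67 to 1.72) and all SHP099 libraries (1.51 to 1.93).

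The 3 polymerases were set against each other by the ratios of their matched large subunits within each library. Polr1a stood at 0.274, 0.322 and 0.313 times the counts of Polr2a in WT libraries, 0.383, 0.327 and 0.342 times in mutant vehicle libraries and 0.311, 0.3 and 0.324 times in SHP099 libraries. The mutant vehicle libraries were highest, and WT and SHP099 libraries overlapped. For Polr1b against Polr2b the ratios were 0.333, 0.389 and 0.42 in WT, 0.413, 0.422 and 0.417 in mutant vehicle and 0.338, 0.337 and 0.34 in SHP099 libraries, so that SHP099 and vehicle libraries did not overlap while WT spanned both. On the log2 scale SHP099 changed Polr1a by -0.17 relative to Polr2a and by -0.10 relative to Polr3a, and Polr1b by -0.30 relative to Polr2b and by -0.31 relative to Polr3b, each without overlap of the libraries. The order of Polr1a and Polr3a turned with the length and GC trend removed, where SHP099 changed Polr1a by -0.34 and Polr3a by -0.40; their transcripts are 9216 and 4687 nt long. The ratios of Polr3a to Polr2a (-2.78 ± 0.10 with vehicle, -2.85 ± 0.04 with SHP099, log2, SD, n = 3) and of Polr3b to Polr2b (-1.69 ± 0.07 and -1.68 ± 0.02) overlapped between SHP099 and vehicle. For genotype the ratio of Polr3a to Polr2a also overlapped. That of Polr3b to Polr2b was lower in mutant vehicle than in WT libraries (-1.52 ± 0.02), a change of -0.17 without overlap. The log2 ratio of Polr1a to Polr3a was higher by 0.20 in mutant vehicle than in WT libraries, and that of Polr1b to Polr3b by 0.31. Neither overlapped. Exact permutation tests, which likewise did not keep the pairing, gave p = 0.1, the smallest possible with 3 against 3, for the ratios without overlap. Therefore none passed 0.05.

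SHP099-treated mutant cells were also compared with WT vehicle cells, a contrast that holds both the genotype and the drug. Here 7 subunits were higher (Polr1d, Polr2d, Polr2g, Polr2h, Polr2j, Polr2m, Polr3k) and 2 lower (Polr2a, Polr3a), where 15.4% of all genes tested were higher and 16.3% lower. Polr2a changed by -0.20 ± 0.05 (edgeR adjusted p = 0.014) and Polr3a by -0.27 ± 0.06 (edgeR adjusted p = 0.01). With the length and GC trend removed Polr2a was at -0.09 (edgeR adjusted p = 0.19) and Polr3a at -0.23 (edgeR adjusted p = 0.024). Polr1a was at -0.16 ± 0.06 (edgeR adjusted p = 0.068) and Polr1b at -0.11 ± 0.06 (edgeR adjusted p = 0.24). Among the higher ones Polr2d changed most, by 0.31 ± 0.05 (edgeR adjusted p = 0.0018), followed by Polr2h at 0.29 ± 0.06 (edgeR adjusted p = 0.0064). The count of 2 lower became 6 without WT replicate 1, adding Polr1a, Polr1b, Polr3d and Polr2l, and that of 7 higher became 4 without it and 3 without WT replicate 2 or SHP099 replicate 3.

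Of the subunits that belong to more than 1 enzyme, 1 of 7 was called higher for genotype, near the 16.9% of all genes, and 0 for SHP099. Polr2h, shared by all 3, was at 27.0, 26.9 and 30.3 CPM in WT, 31.9, 33.9 and 33.5 in mutant vehicle and 33.2, 34.7 and 35.2 CPM in SHP099 libraries. Every mutant library was above every WT library (0.24 ± 0.06 for vehicle, edgeR adjusted p = 0.015), a call lost without WT replicate 2, without mutant vehicle replicate 2 or 3, and with the 2 groups alone. The other shared subunits ran from 6.09 CPM (Polr2k) to 83.7 CPM (Polr2e), and their log2 fold changes were -0.19 to 0.14 for genotype and -0.07 to 0.13 for SHP099. With the length and GC trend removed, Polr1c (-0.17, edgeR adjusted p = 0.031) and Polr2e (-0.13, edgeR adjusted p = 0.046) were lower with SHP099, and 4 of the 7 (Polr1c, Polr1d, Polr2e and Polr2h) were higher for genotype, against 14.4% of all genes.

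Across the 28 genes the SHP099 log2 fold change went with transcript length, with a Spearman correlation of -0.82 and a Pearson correlation of -0.78 with log2 length. These describe 28 genes measured in the same libraries and carry no test. Within Pol II (n = 7) the Spearman correlation with transcript length was -0.89 and within Pol III (n = 10) -0.50. For coding length it was -0.81 over the 28, -0.79 within Pol II and -0.64 within Pol III. The same direction held over all genes tested, at -0.33 (n = 12801), where the median log2 fold change was 0.12 in the shortest of 10 equal bins of transcripts and -0.19 in the longest. Of the 9 subunits with transcripts of at least 3000 nt, 6 were lower with SHP099 and 0 higher, where 21% of all such genes were lower and 3.51% higher. Of the 19 shorter ones, 1 was lower (Polr3d, 2032 nt) and 2 higher, where 5.79% and 13.6% of such genes were. The genotype comparison had a weaker relation in the other direction, at 0.47 over the 28 genes and 0.07 over all genes, with 8 of the 9 long and 5 of the 19 shorter subunits higher (20.5% and 13.7% of all such genes).

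With a smooth trend of length and GC content removed from each library, 9 subunits were lower with SHP099 and 0 higher, where 9.07% and 7.7% of all genes were. Polr1a, Polr1b, Polr2a, Polr2b, Polr3a, Polr3d and Polr3f remained among the 9, Polr1b at -0.41, Polr3a at -0.40 and Polr3d at -0.41, while Polr1a and Polr2a shrank to -0.34 and -0.24. Length therefore moved with the fold changes, and the 7 lower calls were also made with its trend removed.

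**Figure D5:**
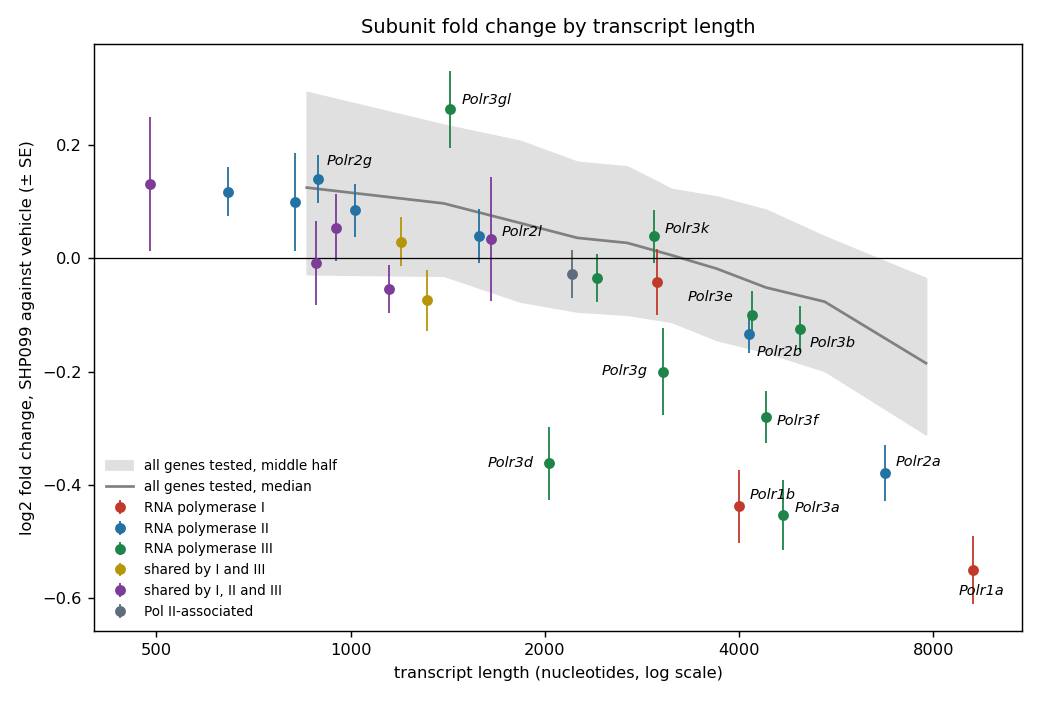
Log2 fold change ± SE for SHP099 against vehicle (3 libraries each) of 27 subunit mRNAs against transcript length in nucleotides (log scale), coloured by polymerase, with the median and interquartile range of all genes tested in 10 bins of length (grey line and band). The 6 lowest points, from -0.55 to -0.28, are Polr1a, Polr3a, Polr1b, Polr2a, Polr3d and Polr3f, and the highest is Polr3gl at 0.26.

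The factors that work with the polymerases were taken from lists of their known members. Their counts stand beside the shares of all genes tested, 13% lower and 8.81% higher with SHP099, and 16.9% higher and 14.7% lower for genotype. Of 8 Pol I initiation factors, a list that also holds the release factor Ptrf, 5 (62.5%) were lower with SHP099 and 0 higher. Rrn3, which brings Pol I to the ribosomal DNA promoter, went from 95.3 ± 3.24 to 79.4 ± 3.18 CPM (-0.26 ± 0.05, edgeR adjusted p = 0.0053), Taf1d from 51.8 ± 5.63 to 37.8 ± 2.93 CPM (-0.45 ± 0.08, edgeR adjusted p = 0.0054) and Taf1c from 26.6 ± 1.28 to 20.9 ± 0.704 CPM (-0.35 ± 0.08, edgeR adjusted p = 0.011), the latter pair being subunits of the promoter selectivity factor. Those 3 calls were made in all 17 alternatives, and the other 2, Taf1a and Ubtf, were lost when any mutant library or WT replicate 2 was left out, which gave a count of 3. Against WT, Rrn3 (0.26 ± 0.05) and Taf1d (0.52 ± 0.09) were higher in mutant vehicle cells and Ptrf, a transcript release factor, lower (-0.42 ± 0.09), with edgeR adjusted p of 0.0038, 0.0023 and 0.0064. The median log2 fold change of the list was -0.20 with SHP099 and 0.09 for genotype, beside 0.00 and 0.02 over all genes.

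Of 16 Pol III initiation factors with the repressor Maf1, 6 (37.5%) were lower with SHP099 and 2 (12.5%) higher, against 13% and 8.81% of all genes; with the length and GC trend removed 4 were lower and 1 higher, Gtf3c3, Gtf3c4 and Snapc5 being lost. Snapc4, a subunit of the small nuclear RNA activating complex, went from 43.6 ± 0.552 to 30.3 ± 0.577 CPM (-0.52 ± 0.05, edgeR adjusted p = 0.00037), Bdp1, of the initiation factor TFIIIB, from 91.7 ± 5.85 to 66.1 ± 1.79 CPM (-0.47 ± 0.05, edgeR adjusted p = 0.00039) and Gtf3c1, the largest subunit of TFIIIC, from 131 ± 6.32 to 97.6 ± 4.19 CPM (-0.43 ± 0.05, edgeR adjusted p = 0.00084). Maf1, which represses Pol III, was among the 2 higher, from 79.3 ± 4.27 to 91.1 ± 2.82 CPM (0.20 ± 0.04, edgeR adjusted p = 0.011), with Snapc5 the other (0.25 ± 0.05, edgeR adjusted p = 0.01). The calls of Snapc4, Bdp1, Gtf3c1 and Maf1 were made in all 17 alternatives. Against WT, 5 (31.2%) were higher and 0 lower, against 16.9% and 14.7% of all genes, led by Gtf3c4 (0.28 ± 0.04, edgeR adjusted p = 0.00076), Bdp1 (0.28 ± 0.05, edgeR adjusted p = 0.0025) and Gtf3c6 (0.27 ± 0.05, edgeR adjusted p = 0.0041). The count higher against WT was 2 with the replicate block and 0 with block and trend removal. The list's median was -0.06 with SHP099 and 0.09 for genotype.

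Of 30 general initiation factors of Pol II tested, 3 (10%) were lower with SHP099 (Taf2, Taf1 and Ercc2) and 1 (3.33%) higher (Gtf2b, 0.19 ± 0.05, edgeR adjusted p = 0.016), shares no higher than those of all genes (13% and 8.81%). The counts were 5 and 2 under the replicate block, 5 and 1 with the length and GC trend removed, 8 and 4 with both, 1 lower without SHP099 replicate 2, and 0 higher without mutant vehicle replicate 1 or SHP099 replicate 3. Taf2 fell by 0.15 ± 0.03, Taf1 by 0.26 ± 0.05 and Ercc2 by 0.28 ± 0.06 on the log2 scale (edgeR adjusted p = 0.0099, 0.0068 and 0.011). Against WT 12 of the 30 (40%) were higher and 0 lower, against 16.9% and 14.7% of all genes. There were 6 higher on dropping WT replicate 2 and 7 on dropping WT replicate 3. With the replicate block 1 was higher, where 5.63% of all genes were. With block and trend removal 1 was higher, where 4.91% of all genes were. Taf2 (0.18 ± 0.03, edgeR adjusted p = 0.0033), Taf9 (0.21 ± 0.04, edgeR adjusted p = 0.0047) and Cdk7 (0.22 ± 0.04, edgeR adjusted p = 0.0055) had the smallest p. Of 23 pausing and elongation factors, 5 (21.7%) were lower with SHP099 and 0 higher, with 7 and 1 under the block and 9 and 2 with block and trend removal; 3 were lower with the trend removed or on dropping replicate 3 of either mutant group, and 1 was higher on dropping WT replicate 3, mutant vehicle replicate 2 or SHP099 replicate 1. Supt6, a histone chaperone that travels with Pol II, fell by 0.39 ± 0.04 (edgeR adjusted p = 0.00037), Supt5, of the pausing factor DSIF, by 0.26 ± 0.04 (edgeR adjusted p = 0.0014) and Ccnt2, a cyclin of P-TEFb, by 0.34 ± 0.06 (edgeR adjusted p = 0.0059). Against WT, 5 of them (21.7%) were higher and 2 (8.7%) lower, with 3 higher on dropping WT replicate 2 or with the 2 groups alone, and 1 lower on dropping WT replicate 3 or mutant vehicle replicate 2 or 3. With the replicate block, and also with block and trend removal, 0 were higher and 1 lower. Hexim1, the inhibitor of P-TEFb, changed by -0.27 ± 0.04 (edgeR adjusted p = 0.0015), Supt6 by 0.16 ± 0.04 (edgeR adjusted p = 0.0079) and Cdc73, of the PAF1 complex, by 0.27 ± 0.06 (edgeR adjusted p = 0.0097).

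Of 11 enzymes acting on the Polr2a C-terminal domain, 4 (36.4%) were lower with SHP099 and 3 (27.3%) higher, against 13% and 8.81% of all genes. These became 2 and 2 on dropping SHP099 replicate 3, 4 and 1 on dropping mutant vehicle replicate 1, and 2 and 3 on dropping mutant vehicle replicate 2. The kinases Cdk12 (-0.45 ± 0.04, edgeR adjusted p = 0.00033) and Cdk13 (-0.18 ± 0.04, edgeR adjusted p = 0.0062) were lower and the phosphatase Ctdsp2 higher (0.21 ± 0.04, edgeR adjusted p = 0.0056). Against WT, 2 of the 11 (18.2%) were higher and 2 lower, near the 16.9% and 14.7% of all genes. There were 3 higher and 1 lower on dropping WT replicate 1, and 1 lower also on dropping mutant vehicle replicate 1 or 3 and with the trend removed. With the replicate block 1 was higher and 1 lower, and with block and trend removal 0 and 1. The phosphatase Ctdspl changed by -0.61 ± 0.08 (edgeR adjusted p = 0.0011), Cdk12 by 0.22 ± 0.04 (edgeR adjusted p = 0.0029) and Rprd1b by 0.19 ± 0.04 (edgeR adjusted p = 0.0053).

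Of 16 factors that assemble and import polymerases, 4 (25%) were lower with SHP099 and 0 higher, against 13% and 8.81% of all genes. With the length and GC trend removed 7 were lower, and 8 with the block as well; there were 2 lower and 1 higher on dropping SHP099 replicate 1, 3 lower and 1 higher on dropping WT replicate 3, and 5 lower and 2 higher under the block. Rpap1 fell by 0.28 ± 0.04 (edgeR adjusted p = 0.0009), Ruvbl2 by 0.21 ± 0.04 (edgeR adjusted p = 0.004) and Slc7a6os by 0.25 ± 0.06 (edgeR adjusted p = 0.012). Against WT, 8 of the 16 (50%) were higher and 0 lower, against 16.9% and 14.7% of all genes, and 4 higher on dropping mutant vehicle replicate 3 or with the 2 groups alone, among the 8 Ruvbl2 (0.26 ± 0.04, edgeR adjusted p = 0.0012), Gpn1 (0.25 ± 0.05, edgeR adjusted p = 0.0033) and Rpap1 (0.19 ± 0.04, edgeR adjusted p = 0.0037). The separate mitochondrial polymerase Polrmt was the 1 lower of 5 mitochondrial transcription genes with SHP099 (-0.27 ± 0.06, edgeR adjusted p = 0.011), a call lost without SHP099 replicate 2. Against WT 2 of the 5 were higher, Tefm (0.46 ± 0.11, edgeR adjusted p = 0.013) and Tfam (0.16 ± 0.05, edgeR adjusted p = 0.026), and 1 on dropping any library but mutant vehicle replicate 2.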

How the data were processed

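Total RNA was made into libraries with the TruSeq stranded kit for mRNA, as the labels' protocols state. FastQC, STAR, Subread, featureCounts and the build mm10 are named, without versions or roles, per the submitters' processing notes; which annotation and strand setting featureCounts used is not given in the sources used here. The deposited file holds raw counts per gene symbol for 9 libraries. On GENCODE M21, 10 of the 28 genes share exonic sequence with a gene on the opposite strand (among them Polr1a, Polr2b, Polr2c, Polr2f, Polr2h, Polr2i, Polr2j, Polr3b and Polr3gl), whose reads cannot be told apart if strand was not used. One column differs from its sample's title in the last character and was taken as SHP099 replicate 3. The labels name individual mice for the mutant cultures only, so p-values measure the spread between these libraries. Replicates differed by more than sampling noise, at 10.9 to 114 in chi-square per degree of freedom.

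The test was edgeR 4.0.16 in R 4.3.3, after filterByExpr on the groups with a minimum count of 10 and TMM scaling, 1 quasi-likelihood model of all 9 libraries, two-sided tests and Benjamini-Hochberg adjustment over 13270 genes, with 0.05 as the threshold. SE is the absolute log2 fold change over the square root of F. Alternatives (17) were size factors from DESeq2, DESeq2 1.42.0 itself, all genes unfiltered, a floor of 1 CPM in 3 or more libraries, each library dropped in turn, the compared groups alone, the replicate number as a block, and removal of a lowess trend (span 0.3) on length and GC content, with and without the block. Blocked fits used the compared groups alone. Replicate numbers come from the titles. Deviations of mutant vehicle and SHP099 libraries from their group means correlated at 0.543, 0.596 and 0.561 for the same number and at -0.359 to -0.227 otherwise, so the numbers pair those libraries.

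Coordinates, lengths (principal transcript) and GC content are from GENCODE M21 (GRCm38, which is mm10); all 28 genes and 12801 of the genes tested had a length. Values are given by library for the large subunits, the Polr3g pair and every member called for genotype or SHP099; of each list with at least 3 calls, up to 3 members with the smallest p are named, and others named were chosen after their values were seen. Of the 28, 1 entered the counts and medians but is not reported here by itself or drawn. The members, lists and tests were chosen with earlier results of these data known. The scripts were tested on simulated data.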

Additional observations from a re-analysis of the deposited data

How the results depend on the processing

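Polr1a, Polr1b, Polr2a, Polr3a, Polr3d and Polr3f kept their lower call with SHP099 in all 17 alternatives, and Polr1a and Polr1b their higher call in mutant cells. Counts of smaller changes moved, and the causes were not tested. For SHP099 the genes called were 2890, 1767 to 2976 with 1 library left out, 5563 with the replicate block and 5222 with the block and the length trend removed. Subunits lower were 7, 6 to 7 with 1 library left out, and 11 with block and trend removal. Subunits higher were 2, 0 to 3 with 1 library left out, 1 without the low-count filter, 1 with the 2 groups alone, 0 with the trend removed and 1 with block and trend removal. Polr2g turned from 0.14 to -0.0021 with the trend removed and -0.0033 with the block as well. The Pol I median of -0.438 ran from -0.452 to -0.416 with 1 library left out and was -0.342 and -0.343 with the trend removed without and with the block. The Pol II median of 0.0847 became -0.0424 and -0.0431, and the Pol III median of -0.112 became -0.0686 and -0.0689.

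For genotype the genes called were 4199, and 2072 with the block, 732 of them higher (5.63% of genes), and 1869 with the block and trend removal. WT and mutant vehicle libraries have no more than their number in common (correlations of -0.135 to -0.0721), and likewise WT and SHP099 libraries (-0.12 to -0.052). Subunits higher were 13, 7 to 12 with 1 library left out, 7 with the 2 groups alone, 2 with the block and 3 with block and trend removal. Subunits lower were 0, and 0 to 1 with 1 library left out (Polr2l, without WT replicate 1). The Pol II median of 0.117 ran from 0.0270 to 0.173 with 1 library left out, and the Pol III median of 0.168 was 0.105 and 0.103 with the trend removed without and with the block.

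For SHP099-treated against WT cells the genes called were 4209, and 2212 with block and trend removal. Subunits higher were 7, 3 to 7 with 1 library left out, 3 with the trend removed and 0 with the block as well. Subunits lower were 2, 2 to 6 with 1 library left out, 1 with the block and 0 with block and trend removal. The Pol I median of -0.105 ran from -0.180 to -0.0304 with 1 library left out and was -0.0244 and -0.0148 with the trend removed, and the Pol II median of 0.133 was 0.0475 and 0.0484, and 0.0850 to 0.151 with 1 library left out. With the replicate block in the fit of SHP099 against vehicle, Polr3b, Polr3g and Polr2j were the subunit calls gained and none was lost. Of the 31 calls of single subunits, 8 were made in every alternative and 23 were lost in at least 1, and 15 of the other single-subunit results passed in at least 1. Depth limits the least abundant subunits, Polr2k and Polr2l, whose standard errors were the largest of the 28.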

Other observations

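The table lists 3 RNAs that Pol I or Pol III makes; they were chosen after their values were seen, and the libraries were made with an mRNA kit. Rn45s, the ribosomal RNA precursor made by Pol I, took 0.705%, 0.465% and 0.377% of all counts in the WT libraries, 0.357%, 0.288% and 0.276% in the mutant vehicle libraries and 0.734%, 0.658% and 4.33% in the SHP099 libraries. The mutant vehicle libraries were the lowest, and SHP099 replicate 3 was far above every other library. Its direction was opposite to that of the Polr1a and Polr1b mRNAs in both comparisons. In libraries made with an mRNA kit these counts are not a measure of Pol I output, which was not tested.

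The Pol III transcripts Rmrp and Rpph1, the RNA parts of 2 RNA-processing enzymes, had few counts in most libraries. Rmrp had 155, 52 and 40 counts in WT, 51, 42 and 31 in mutant vehicle and 119, 63 and 818 in SHP099 libraries. Rpph1 had 353, 127 and 83 counts in WT, 161, 75 and 214 in mutant vehicle and 216, 74 and 844 in SHP099 libraries. SHP099 replicate 3 again stood apart for both, and the counts of the remaining libraries of that group overlapped those of the vehicle libraries for Rpph1. These counts are not scaled to total counts, which differed between libraries, so no difference in Rmrp is drawn from them.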
